A study of Mus musculus with 89 samples.

Results

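Tenascin C (Tnc) and 9 other genes of the extracellular matrix, Ndnf, Dcn, Fn1, Eln, Postn, Lox, Loxl1, Fbn1 and Lum, were followed in mouse lung over 3 strains and 6 exposures. Where a gene had several probe sets, the one used was selected on its mean signal over all 89 arrays, the highest being taken, and both probe sets of Tnc are given. The gene names themselves were chosen with earlier results of these data in view, so no count below is independent evidence about the group. Of the 10 genes, 9 had a probe set named here, among 17097 genes with one, and all 9 were among the 15065 genes tested. Fbn1, the gene of the microfibril protein fibrillin 1, was not analysed here.

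RNA came from the left lobe of perfused lungs of male mice aged 7 to 8 weeks, described by the submitters as whole lung homogenate, and was amplified with a NuGEN system for Affymetrix HT Mouse430PM arrays. Wild-type C57BL/6 and BALB/c mice were set beside SP-D-/- mice, in which the gene of the lung collectin surfactant protein D is disrupted. The inbred background of SP-D-/- is not given in the sources used here. Every mouse spent 2 h in air or in ozone at 3 ppm and was killed 12 h after that. Allergen mice first received the mould allergen Aspergillus fumigatus (Af) by intraperitoneal injection on days 0 and 7 and by intranasal challenge on day 13. The Af 24 h groups breathed air, the Af 96 h groups ozone, and the Af 168 h groups either gas, the hours counting from challenge to death. Air controls numbered 6 arrays in C57BL/6, 5 in SP-D-/- and 5 in BALB/c, and ozone alone 6, 4 and 2 in that order of strains. Af 24 h had 4, 6 and 5 arrays and Af 96 h had 5, 6 and 6. Af 168 h had 4, 5 and 6 arrays when followed by air and 6, 4 and 4 when followed by ozone. Allergen groups that breathed air were compared with air, the Af 96 h groups with ozone alone, and ozone with air among the Af 168 h groups. Comparisons within a strain that use the same air or ozone arrays share those controls.

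The extracellular matrix of the lung is laid down mostly by fibroblasts and smooth muscle cells. Elastic fibres, made of elastin on a scaffold of fibrillin microfibrils and cross-linked by lysyl oxidases, give the alveolar wall its recoil. Small leucine-rich proteoglycans such as decorin and lumican bind collagen fibrils and space them. Matricellular proteins such as tenascin C and periostin are secreted into the matrix to change how cells attach and respond, and tenascin C is known for low levels in healthy adult tissue and for induction at injury and in asthma.

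RefSeq gave a promoter sequence for Tnc, Postn and Fbn1, and those of the matricellular genes Tnc and Postn are shown. They were picked because after allergen, with air or ozone, Tnc lay on either side of its air values and Postn mostly below them. Each is the 250 bases before an annotated transcript start of GRCm38.p6, 5′ to 3′ on the gene's own strand, with the letters TATAA (a core TATA box) and GGGCGG (a GC box) in capitals. The Tnc window is chr4:64047016-64047265 on the minus strand, before the upstream of its 2 starts. The Postn window is chr3:54360857-54361106 on the plus strand, before the downstream of its 2 starts.
Tnc: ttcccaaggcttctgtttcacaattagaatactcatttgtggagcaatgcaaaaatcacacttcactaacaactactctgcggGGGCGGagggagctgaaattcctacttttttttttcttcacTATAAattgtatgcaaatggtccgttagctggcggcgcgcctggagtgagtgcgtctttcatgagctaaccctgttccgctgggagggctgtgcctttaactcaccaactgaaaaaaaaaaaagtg
Postn: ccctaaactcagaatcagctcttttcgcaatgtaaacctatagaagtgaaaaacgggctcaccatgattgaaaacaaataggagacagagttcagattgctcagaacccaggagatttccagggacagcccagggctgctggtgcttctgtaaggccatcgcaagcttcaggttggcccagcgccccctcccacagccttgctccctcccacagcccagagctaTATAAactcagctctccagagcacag
The Postn window shown held TATAA 26 bases before its start and was 52.0% G and C, whereas the window before its upstream start held none of the letters searched and was 40.4% G and C. The Tnc window held TATAA 126 bases and GGGCGG 167 bases before its start and was 44.8% G and C. The window before the second Tnc start overlaps it and held TATAA 27 bases before that start. On either strand, TATAA occurred in 22.8% and GGGCGG in 32.7% of 32851 promoters of the same length. TGANTCA, the site of AP-1 factors, occurred in 6.75% of promoters and in neither window. The letters searched were chosen after the sequences had been seen, and a match describes the sequence only.

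All values are log2 signals as deposited, and each array had the same median of 4.90, so they show change relative to the other genes of an array. Levels are given as mean ± SD over arrays, changes as log2 change ± SE, and calls at an adjusted p under 0.05 (limma, Benjamini-Hochberg over 15065 genes). Nothing beyond replicate numbers says that arrays came from separate animals, so p-values measure the spread between these arrays. As markers of lung, the alveolar genes Sftpc, Sftpa1 and Ager were above the filter level on all 89 arrays. Sftpd under 9 on an array with a wild-type label, or above 8 with the SP-D-/- label, made an array doubted. So did 40 strain-specific genes lying on the BALB/c side under another label, or on the C57BL/6 side under the BALB/c label. By these rules 5 arrays are called the doubted arrays. These carry the labels BALB/c Af 24 h replicates 4 and 5, BALB/c Af 168 h with ozone replicate 6, C57BL/6 Af 96 h replicate 1 and SP-D-/- Af 96 h replicate 1. BALB/c Af 24 h replicates 4 and 5 were doubted only for Sftpd, at 8.79 and 7.68, and their strain-specific genes lay on the BALB/c side. Sftpd was 10.9 on SP-D-/- Af 96 h replicate 1 and 5.59 on BALB/c Af 168 h with ozone replicate 6. On that BALB/c array the strain-specific genes lay on the C57BL/6 side, and on C57BL/6 Af 96 h replicate 1 on the BALB/c side. All 5 stayed in the main fit. The mean of 10 hybridization controls, called the spike level here, ran from 7.86 to 11.8 over arrays. The 3′ minus 5′ beta-actin signal, called the actin difference here, is a sign of RNA quality and ran from 0.872 to 4.64.

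Tnc encodes tenascin C, a hexameric glycoprotein that loosens cell attachment. Its signal was highest in C57BL/6 lungs after ozone alone, at 7.61 ± 0.30 (n = 6), and lowest in C57BL/6 lungs at Af 96 h with ozone, at 4.67 ± 0.81 (n = 5). In whole lung, fewer cells of a type and less RNA per cell cannot be told apart. Between these ends lay SP-D-/- Af 96 h at 7.17 ± 0.44, C57BL/6 Af 168 h with air at 7.07 ± 0.90, SP-D-/- Af 24 h at 7.07 ± 0.96 and BALB/c ozone at 6.98 ± 0.25. The other groups followed from SP-D-/- Af 168 h with air, at 6.83 ± 1.15, down to SP-D-/- Af 168 h with ozone at 5.48 ± 1.17 and SP-D-/- ozone at 5.33 ± 1.17. Only the step from the first to the second group, 0.446, was larger than both groups' SDs, and no other neighbours in this order differed beyond their spread.

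In C57BL/6 lungs the Tnc signal in air ran from 5.49 to 6.51 with a median of 6.29. After ozone it ran from 7.22 to 8.00 with a median of 7.53. All 6 ozone arrays thus lay above all 6 air arrays. The change was 1.42 ± 0.48, a 2.67-fold higher signal, but it did not pass over all genes (limma, adjusted p = 1.00, unadjusted p = 0.00399). Ozone alone called 4 of the 15065 genes in this strain, 0.0266%, and the groups did not overlap for 1.42% of genes. Lox was the other of 9 members whose groups did not overlap. In a fit of these 2 groups alone Tnc passed (limma, adjusted p = 0.00549).

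In SP-D-/- lungs Tnc was 5.89, 6.35, 6.67, 7.19 and 6.90 on the 5 air arrays and 5.17, 6.61, 5.74 and 3.82 on the 4 ozone arrays. Most ozone arrays were below the air arrays, and the groups overlapped. The change was -1.27 (limma, adjusted p = 0.248), in a comparison that called 0.0996% of genes. In BALB/c, 6.23, 6.68, 6.49, 6.63 and 6.28 in air stood beside 6.80 and 7.16 after ozone. Both BALB/c ozone arrays were above the air arrays, but 2 arrays limit the precision, and 0.0133% of genes were called.

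After ozone alone the 2 strains differed in Tnc by -2.28 ± 0.53 (SP-D-/- minus C57BL/6), a 4.85-fold lower signal in SP-D-/- (limma, adjusted p = 0.0241). All 4 SP-D-/- arrays were below all 6 C57BL/6 arrays. This comparison called 0.797% of genes and Tnc alone among the members. The call was lost without C57BL/6 ozone replicates 3 or 4 or SP-D-/- ozone replicates 2 or 5 (adjusted p up to 0.276, with a change of -1.77 without replicate 5). With the doubted arrays left out and the spike level as a covariate it was -1.28 (adjusted p = 0.116). The second Tnc probe set was not lower in SP-D-/- ozone, at 4.94 against 4.33 in C57BL/6 ozone (change 0.62, limma, adjusted p = 0.383). The actin difference was 2.75 ± 0.387 in SP-D-/- ozone, 1.88 ± 0.165 in SP-D-/- air (exact permutation adjusted p = 0.034) and 1.72 ± 0.193 in C57BL/6 ozone. The test of the difference between the 2 ozone responses passed for none of the 15065 genes (limma), with 1157 genes and 3 members at an unadjusted p under 0.05.

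The strains diverged at Af 96 h with ozone. In C57BL/6 the 5 arrays read 5.61, 3.70, 5.15, 3.94 and 4.92, every one below the lowest array after ozone alone. Tnc fell by 2.95 ± 0.50, a 7.71-fold lower signal (limma, adjusted p = 9.03e-06), where 36.4% of genes were called. In SP-D-/- the 6 arrays ran from 6.39 to 7.66 with a median of 7.25, the lowest of them below the highest ozone array. There Tnc rose by 1.83 ± 0.53, a 3.56-fold higher signal (limma, adjusted p = 0.0429), where 2.58% of genes were called. This rise was measured from an SP-D-/- ozone group that was itself low, and SP-D-/- air, which was not compared with Af 96 h, was at 6.60 ± 0.50. The call was lost without ozone replicates 2, 4 or 5 or Af 96 h replicates 1, 2, 3, 5 or 6 (adjusted p up to 0.418, with 1.33 without ozone replicate 5). It was also lost without the doubted arrays (1.78, adjusted p = 0.0632). In BALB/c, Tnc at Af 96 h was 6.40 ± 1.19 (n = 6), and no member was called in a comparison that called 0.0531% of genes.

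The response at Af 96 h was 4.78 ± 0.73 higher in SP-D-/- than in C57BL/6 (limma, adjusted p = 4.97e-05), and this test of the difference called 27.4% of genes. With the doubted arrays left out and the spike level as a covariate it was 3.05 (adjusted p = 0.014), and with the actin difference as well it was 3.05 (adjusted p = 0.0549). The spike level was 10.9 ± 0.447 at Af 96 h against 8.59 ± 1.14 with ozone alone in C57BL/6 (two-sided exact permutation p = 0.0130, adjusted over 15 tests 0.195). The fall of Tnc in C57BL/6 was called under every alternative run, covariates included.

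The second Tnc probe set differed in direction from the first in SP-D-/- lungs with ozone alone and at Af 96 h, but not in the other 3 exposure comparisons of that strain. It was dim, with a mean of 3.70 and 15 of 89 arrays above the filter level of 4.45, and its correlation with the first probe set over arrays was 0.10. After ozone in SP-D-/- it read 3.92, 4.06, 5.62 and 6.17 on replicates 2, 3, 4 and 5, against 3.35 ± 0.12 in air. Replicate 5 was thus the lowest SP-D-/- ozone array by the first probe set, at 3.82, and the highest of all 89 arrays by the second. In SP-D-/- at Af 96 h it was at 3.18 ± 0.45. Against ozone it fell by 1.76 (limma over 36800 probe sets, adjusted p = 0.0115) where the first rose by 1.83 (adjusted p = 0.0498). With the mean of both probe sets the change was 0.03. The difference between responses, SP-D-/- minus C57BL/6, was -0.57 on the second probe set (limma, adjusted p = 0.436) against 4.78 on the first, and SP-D-/- minus C57BL/6 at Af 96 h was 0.05 (adjusted p = 0.939) against 2.50. In C57BL/6 both probe sets moved alike with ozone alone, 1.42 and 1.03 higher, and at Af 96 h, by -2.95 and -1.19 (limma, adjusted p = 1.2e-05 and 0.0139). Their directions differed with ozone among the C57BL/6 Af 168 h groups and at Af 96 h against ozone in BALB/c.

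**Figure D1:**
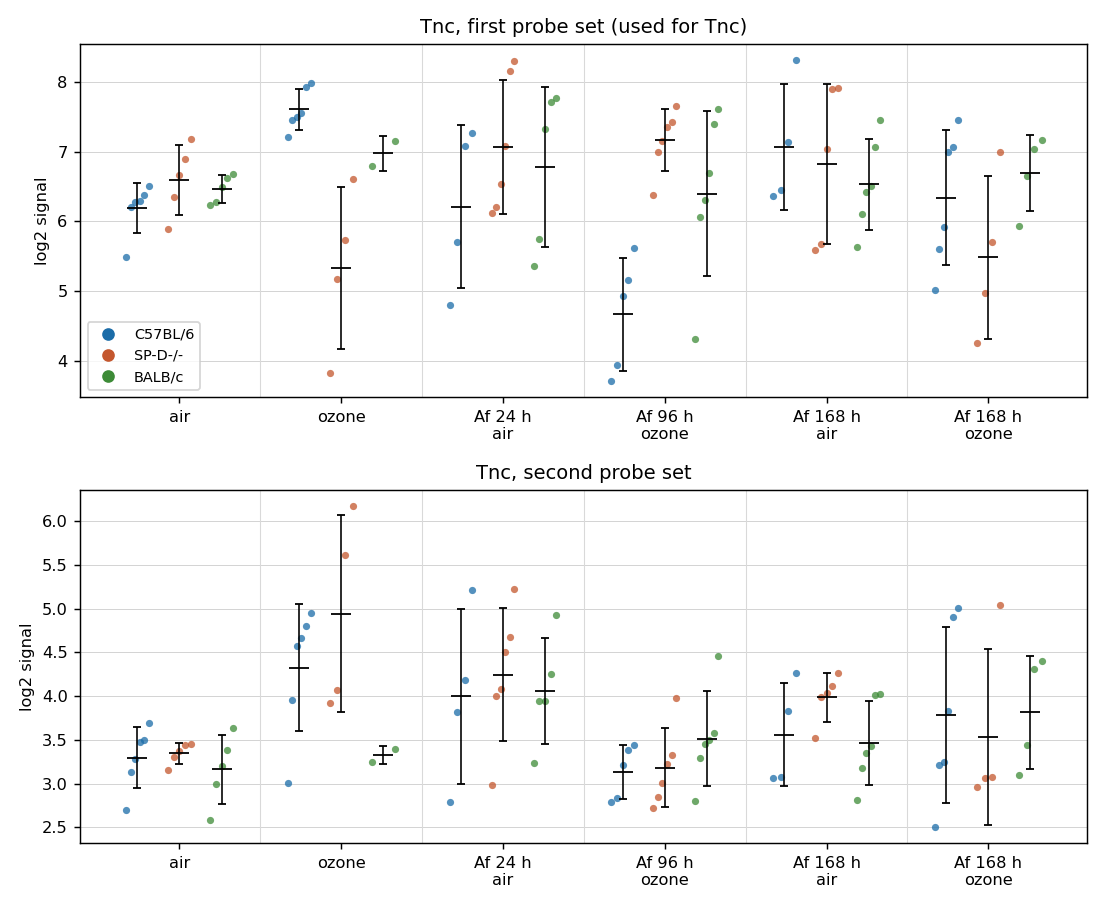
Log2 signal of the Tnc probe sets on every array, by exposure (x axis) and strain (colour), with bars for the group mean and SD. On the first probe set the 6 C57BL/6 ozone arrays sit between 7.22 and 8.00, above all air arrays of that strain, and the 5 C57BL/6 Af 96 h arrays sit at 5.61 or lower, while on the second the SP-D-/- ozone arrays reach 6.17.

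No allergen comparison with air called Tnc. In C57BL/6 at Af 24 h it changed by 0.02 (limma, adjusted p = 0.983), with arrays from 4.80 to 7.27. Over the 61 allergen arrays of all strains, those that also breathed ozone included, 24 lay above the highest and 18 below the lowest air array of their own strain. Allergen arrays thus lay on both sides of the air range, with no common direction. With ozone alone 6 of 6 C57BL/6 and 2 of 2 BALB/c arrays lay above that range, and 3 of 4 SP-D-/- arrays below it.

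Postn encodes periostin, a matricellular protein that binds collagen and integrins and is known as a marker of type 2 airway inflammation in people. It was called lower at 24 h after challenge in both wild-type strains. In C57BL/6 it ran from 9.55 to 10.01 in air, with a median of 9.87, and was 6.89, 8.70, 7.03 and 8.17 at Af 24 h. No Af 24 h array reached the lowest air array, and the change was -2.14 ± 0.53 (4.40-fold lower, limma, adjusted p = 0.00453), where 16.2% of genes were called. In BALB/c it was 9.96 ± 0.31 in air (n = 5) and 8.95, 8.64, 8.56, 6.60 and 8.64 at Af 24 h, all lower than in air. That change was -1.68 ± 0.52 (3.20-fold lower, adjusted p = 0.0244), where 12.1% of genes were called. It was lost without the array labelled Af 24 h replicate 4 (-1.26, adjusted p = 0.162), one of the doubted arrays, and without air replicate 2 (adjusted p = 0.0628). In SP-D-/- periostin was 9.52 ± 0.24 in air and 8.94 ± 0.59 at Af 24 h, where 3 of 6 arrays were below the lowest air array, and was not called. The test of a difference between SP-D-/- and C57BL/6 in the response at 24 h called 0 of 15065 genes (limma).

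Periostin also fell at Af 96 h in C57BL/6, to 7.27, 7.77, 5.28, 7.12 and 7.83 from 9.28 ± 0.26 with ozone alone. This was a fall of 2.23 ± 0.50 (4.68-fold lower, limma, adjusted p = 0.000503). With the doubted arrays left out and the spike level as a covariate it was not called (-1.24, adjusted p = 0.0781). In SP-D-/- at Af 168 h it was 9.19 ± 0.36 with air, and 8.38, 8.34, 7.75 and 4.23 with ozone. All ozone arrays were below the air arrays, and the change of -2.01 missed the threshold (adjusted p = 0.0603). Of the 61 allergen arrays, those that also breathed ozone included, 51 were below the lowest air array of their own strain and none was above the highest. With ozone alone 5 of 6 C57BL/6, 4 of 4 SP-D-/- and 2 of 2 BALB/c arrays were below it too, so this count is not of allergen alone. In each of the 15 comparisons within a strain the periostin change was below 0, from -2.23 to -0.17, and 3 of the 15 were called.

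Ndnf encodes a secreted glycoprotein with fibronectin type III domains that supports neurons and blood vessels. It had its highest mean in SP-D-/- at Af 96 h and its lowest in C57BL/6 at Af 96 h. In C57BL/6 it ran from 5.82 to 7.11 with ozone alone, with a median of 6.89, and was 3.94, 3.21, 3.36, 3.73 and 3.74 at Af 96 h. These 5 values are under the filter level, so the size of the fall, 3.13 ± 0.64 or 8.73-fold lower, is approximate (limma, adjusted p = 0.000172). In SP-D-/- it was 4.34, 5.72, 5.13 and 3.04 with ozone alone (replicates 2, 3, 4 and 5) and ran from 6.55 to 7.40, with a median of 7.17, at Af 96 h. The groups did not overlap, as for 7.07% of genes, and Ndnf rose by 2.47 ± 0.69 (adjusted p = 0.0324), again approximate in size, since 4.34 and 3.04 are under the filter level. As for Tnc, ozone replicate 5 was the lowest array, and without it the rise was 1.97 (adjusted p = 0.316). That array had the highest spike level and actin difference of its group, 11.4 and 3.22. In SP-D-/- the spike level was 10.4 ± 1.29 with ozone alone and 9.41 ± 0.611 at Af 96 h (exact permutation adjusted p = 0.408). The Ndnf call was also lost without ozone replicate 2 or Af 96 h replicates 1, 3, 4 or 5 (limma, adjusted p from 0.0541 to 0.0905). Its other probe set moved the same way, by -1.83 in C57BL/6 (adjusted p = 0.0102) and 1.19 in SP-D-/- (adjusted p = 0.27).

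Fn1 encodes fibronectin, the adhesive glycoprotein on which other matrix is assembled. Its group means ran from 7.61 ± 0.86 (n = 4) in SP-D-/- at Af 168 h with ozone to 9.35 ± 0.26 (n = 6) in BALB/c at Af 168 h with air. In C57BL/6 at Af 96 h it was 8.07, 7.35, 7.11, 8.37 and 8.19, all below the lowest ozone array, 8.46. This was a fall of 0.98 ± 0.32 (1.97-fold lower, limma, adjusted p = 0.0129). It was not called without Af 96 h replicate 3 (-0.80, adjusted p = 0.0598). Nor was it called with the doubted arrays left out and the spike level as a covariate (-0.44, adjusted p = 0.33). In SP-D-/- at Af 168 h it was 9.52, 8.70, 9.13, 9.27 and 8.59 with air and 6.87, 8.28, 8.43 and 6.85 with ozone. All ozone arrays were lower, and the fall of 1.43 ± 0.35 (2.70-fold lower, adjusted p = 0.0332) was the one member called in a comparison that called 0.604% of genes. In the same comparison the mean level of 8 skeletal muscle markers was 4.76 with air (4.64 to 4.93 over arrays) and 8.07 with ozone (6.79 to 9.73). Tnnc2 and Mylpf were called higher by 5.84 and 3.55 (limma, adjusted p = 0.0155 and 0.0459). Among the macrophage markers Adgre1 alone was called, lower by 1.84 (adjusted p = 0.0387), and Mrc1, Chil3, Marco, Siglecf, C1qa, Csf1r and Fcgr1 were not. The part of these markers in the fall of Fn1 was not tested. The Fn1 call was lost without ozone replicates 1 or 6 (-1.19 and -1.18, adjusted p = 0.207 and 0.438) or air replicates 2, 4 or 5 (adjusted p up to 0.105).

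Eln encodes elastin, the rubber-like core of elastic fibres. Its group means ran from 8.29 ± 1.14 in BALB/c at Af 24 h to 10.41 ± 0.41 in BALB/c at Af 96 h with ozone. In BALB/c it was 9.31 ± 0.17 in air and 8.98, 9.20, 8.61, 8.30 and 6.35 at Af 24 h. One array, labelled replicate 5 and doubted, lay far below the rest. The fall of 1.02 ± 0.36 (2.03-fold lower, limma, adjusted p = 0.0486) was lost without that array (-0.54, adjusted p = 0.291) and without Af 24 h replicate 4 or any one of the 5 air arrays (adjusted p up to 0.098). In C57BL/6 all 4 Af 24 h arrays, from 8.76 to 8.96, were below all 6 air arrays, from 9.17 to 10.03, but the change of -0.75 did not pass (adjusted p = 0.136). Elastin in C57BL/6 at Af 96 h was 8.85 ± 0.85 against 9.81 ± 0.21 with ozone, a fall of 0.96 ± 0.34 (1.95-fold lower, adjusted p = 0.0237), lost without Af 96 h replicate 2 (-0.61, adjusted p = 0.17). The other Eln probe set, whose correlation with the first over arrays was 0.04, changed by 0.22 there (adjusted p = 0.555).

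Lox encodes lysyl oxidase, which cross-links collagen and elastin. In C57BL/6 it was 8.11 ± 0.28 in air and 9.14 ± 0.51 with ozone (n = 6 and 6), its highest group. All ozone arrays were above the highest air array, as for Tnc, and the change of 1.03 did not pass (limma, adjusted p = 1.00). The Af 96 h arrays were 7.31, 5.49, 4.43, 6.97 and 5.44, all below the lowest ozone array of 8.59. It fell by 3.21 ± 0.70, a 9.25-fold lower signal (adjusted p = 0.000387). Another of its probe sets fell by 2.39 (adjusted p = 0.000799), and the remaining one was under the filter level on all 89 arrays. Without the doubted arrays and with the spike level and the actin difference as covariates the change was -1.77 (adjusted p = 0.0591). In SP-D-/- at Af 168 h with ozone Lox varied over arrays by a SD of 2.26 around 5.76 (n = 4).

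Loxl1 encodes a lysyl oxidase-like enzyme tied to elastic fibre upkeep. Its C57BL/6 arrays at Af 96 h were 6.21, 5.45, 7.30, 6.78 and 6.06, against 7.64 ± 0.27 with ozone. One of them was within the range of the ozone arrays. It fell by 1.28 ± 0.27 (2.42-fold lower, limma, adjusted p = 0.000287). Its other 17 group means lay between 6.94 and 7.90, and no other exposure comparison called it.

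**Figure D2:**
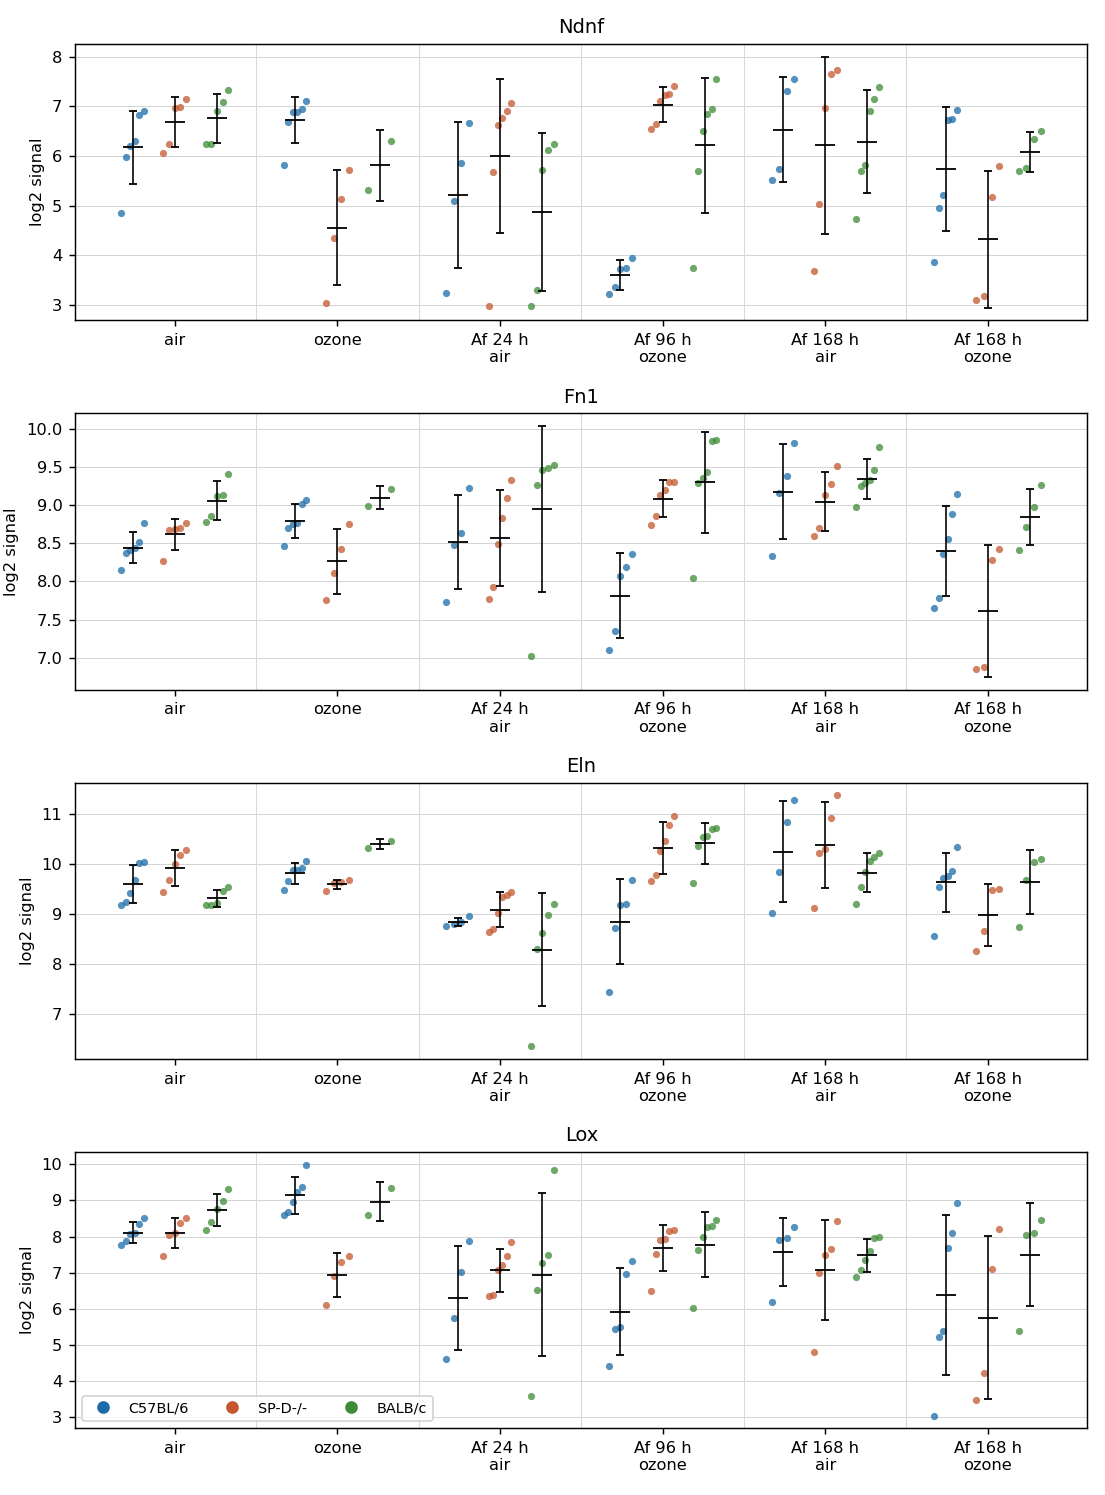
Log2 signal of Ndnf, Fn1, Eln and Lox on every array, by exposure and strain (colour), with bars for the group mean and SD. The 5 C57BL/6 Af 96 h arrays of Ndnf sit between 3.21 and 3.94, below all ozone arrays, and BALB/c Af 24 h arrays of Lox spread from 3.59 to 9.84.

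Dcn encodes decorin, a small proteoglycan that coats collagen fibrils and binds TGF-beta. It fell at Af 24 h in all 3 strains. In C57BL/6 it ran from 8.98 to 9.46 in air, with a median of 9.13, and was 6.61, 7.18, 7.40 and 7.36 at Af 24 h. The groups were far apart, and the fall was 2.01 ± 0.40 (4.03-fold lower, limma, adjusted p = 0.000429). In BALB/c it was 9.06, 8.48, 9.41, 9.20 and 9.46 in air and 7.28, 6.28, 5.91, 7.13 and 7.36 at Af 24 h. Again every allergen array was below every air array, with a fall of 2.33 ± 0.40 (5.04-fold lower, adjusted p = 3.81e-05). This call held without any one array and under each alternative run.

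In SP-D-/- decorin was 8.77, 8.60, 8.13, 8.45 and 8.62 in air and ran from 6.37 to 8.28 at Af 24 h, with a median of 7.20. The highest Af 24 h array overlapped the lowest air array. The fall was 1.29 ± 0.38 (2.44-fold lower, limma, adjusted p = 0.0302), where 4.71% of genes were called. It was lost without air replicates 2, 3, 5 or 6 or Af 24 h replicates 4, 5 or 6 (adjusted p up to 0.104). The test of a difference between strains in the response at 24 h did not pass, with 0.73 for SP-D-/- minus C57BL/6 (adjusted p = 0.998) and -0.32 for BALB/c minus C57BL/6 (adjusted p = 1.00).

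The actin difference was higher at Af 24 h than in air in C57BL/6, at 2.84 ± 0.54 against 1.59 ± 0.16 (two-sided exact permutation p = 0.00952, adjusted p = 0.0238). It was 2.54 ± 0.29 against 1.88 ± 0.17 in SP-D-/- (exact adjusted p = 0.0238) and 2.64 ± 1.15 against 1.71 ± 0.36 in BALB/c (exact adjusted p = 0.238). With the spike level and the actin difference as covariates and without the doubted arrays, decorin changed by -1.36 in C57BL/6 (limma, adjusted p = 0.058), -0.94 in SP-D-/- (adjusted p = 0.167) and -2.03 in BALB/c (adjusted p = 0.00758). Periostin in C57BL/6 changed by -1.21 in that fit (adjusted p = 0.166).

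Decorin stayed lower at 168 h in BALB/c. There it ran from 6.59 to 8.66 with a median of 7.02, with 1 array above the lowest air array. The fall was 1.85 ± 0.38 (3.60-fold lower, limma, adjusted p = 0.0028), where 1.56% of genes were called. With both covariates and without the doubted arrays the change was -1.26 (adjusted p = 0.0973). The actin difference there was 2.83 ± 0.373 against 1.71 ± 0.361 in air (exact permutation p = 0.00866, adjusted p = 0.0238). In C57BL/6 at 168 h it read 8.27, 6.99, 7.30 and 9.45, a change of -1.15 (adjusted p = 0.139), and in SP-D-/- it was 7.29 ± 0.69, a change of -1.22 (adjusted p = 0.0962). Each of those comparisons called 1.35% of genes and no member. Whether the strains differed at 168 h was tested and called for none of the members.

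With ozone alone decorin in C57BL/6 was at 9.01 ± 0.23. The Af 96 h arrays were 6.10, 5.76, 6.81, 7.46 and 6.32, all below the lowest ozone array of 8.75. The fall of 2.52 ± 0.38 (5.72-fold lower, limma, adjusted p = 9.55e-07) was called under each alternative run. Decorin at Af 96 h was 6.49 ± 0.66 in C57BL/6, 7.11 ± 0.62 in SP-D-/- and 6.55 ± 0.67 in BALB/c, and the tests of SP-D-/- and BALB/c against C57BL/6 did not pass (0.62 and 0.06, adjusted p = 0.224 and 0.935). Of the 61 allergen arrays, those that also breathed ozone included, 56 were below the lowest air array of their own strain and none was above the highest. These were 18 of 19 in C57BL/6, 18 of 21 in SP-D-/- and 20 of 21 in BALB/c. With ozone alone 2 of 6 C57BL/6, 2 of 4 SP-D-/- and 2 of 2 BALB/c arrays were below the lowest air array.

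Lum encodes lumican, a keratan sulfate proteoglycan that regulates collagen fibril width. Its signal was near background, above the filter level on 44 of 89 arrays, so sizes are approximate. In BALB/c it was 5.24, 5.69, 6.56, 6.30 and 5.78 in air, 5.48, 3.81, 4.05, 5.78 and 3.86 at Af 24 h, and from 3.66 to 4.88 at Af 168 h. The groups overlapped at 24 h but not at 168 h. The falls were 1.32 ± 0.38 (2.49-fold lower, limma, adjusted p = 0.0156) and 1.63 ± 0.37 (3.09-fold lower, adjusted p = 0.00799). The first was lost without air replicate 3 or Af 24 h replicates 2 or 5 (adjusted p up to 0.0618), and the second without air replicate 3 (-1.46, adjusted p = 0.0556). In C57BL/6 lumican fell at Af 96 h by 1.31 ± 0.37 (2.49-fold lower, adjusted p = 0.00438), to 3.33, 4.10, 3.86, 3.54 and 3.96, all under the filter level and 1 above the lowest ozone array of 4.06. At 24 h in C57BL/6 its change was -0.99 (adjusted p = 0.0663).

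**Figure D3:**
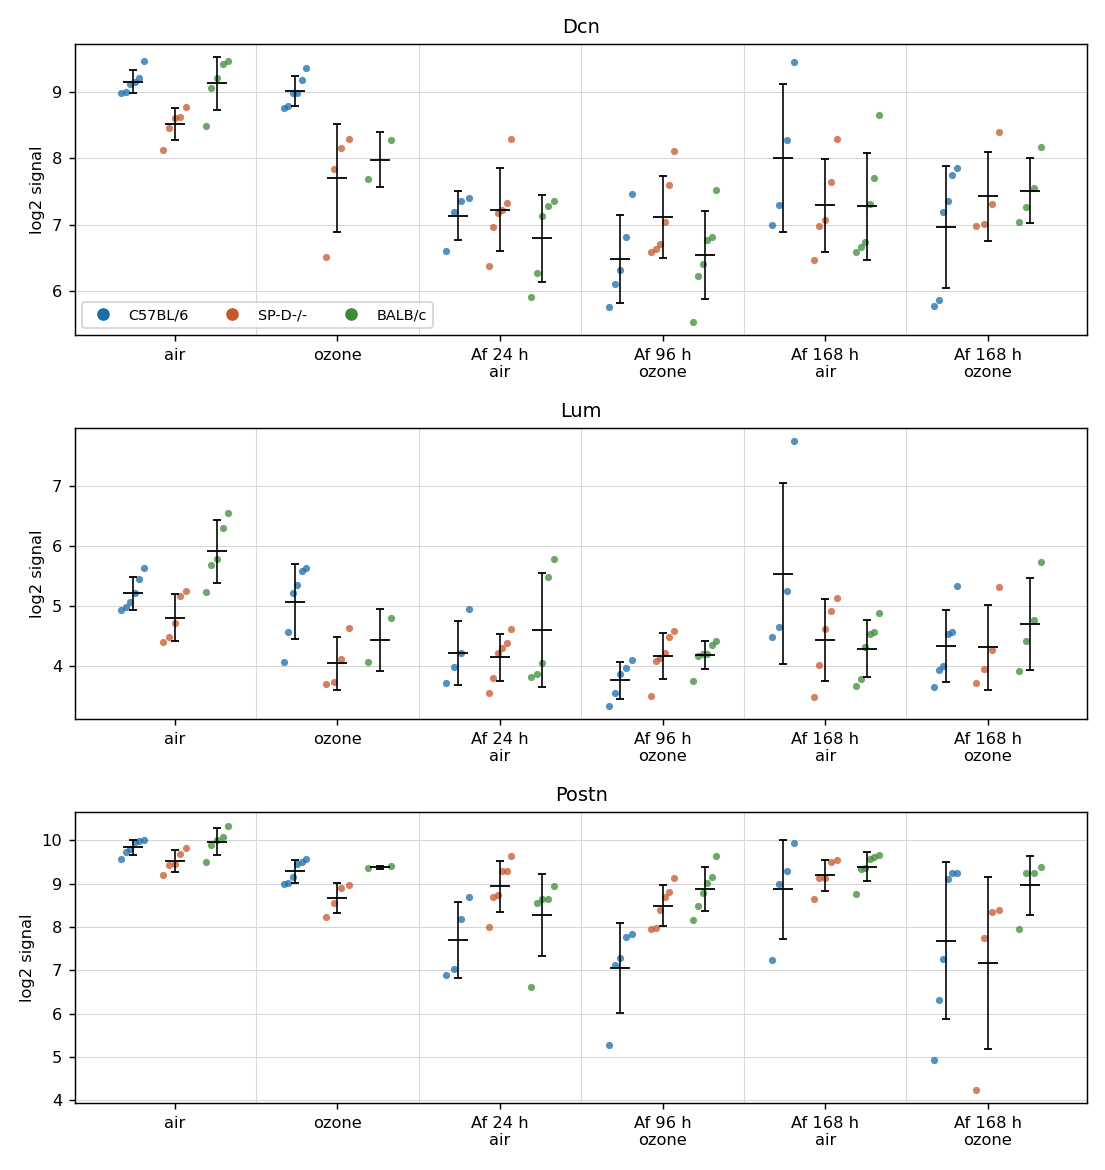
Log2 signal of Dcn, Lum and Postn on every array, by exposure and strain (colour), with bars for the group mean and SD. In C57BL/6 and BALB/c all Af 24 h arrays of Dcn and Postn sit below all air arrays, and Dcn at Af 96 h has means between 6.49 and 7.11 in all 3 strains.

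Over the 15 comparisons of an exposure within a strain, members passed in 7. C57BL/6 Af 24 h called 2 of 9 members (Dcn and Postn, both lower), near the 16.2% of all genes called, and the members' median change was -0.96 beside -0.00 over all genes. BALB/c Af 24 h called 4 (Dcn, Eln, Postn and Lum, all lower), where 12.1% of genes were called, with a median of -1.32 beside -0.01. In C57BL/6 at Af 96 h all 9 were lower, with a median of -2.23 beside -0.00, where 19.2% of genes were called lower and 17.2% higher. Of these 9, 6 did not overlap between the groups, as for 16.5% of genes. The other 4 comparisons with calls were SP-D-/- Af 24 h (Dcn, 4.71% of genes), SP-D-/- Af 96 h (Tnc and Ndnf, 2.58%), SP-D-/- Af 168 h with ozone (Fn1, 0.604%) and BALB/c Af 168 h with air (Dcn and Lum, 1.56%). Ozone after allergen at 168 h called no member in C57BL/6 (0.0597% of genes) or BALB/c (0.0199%), with 4 and 0 members at an unadjusted p under 0.05, as for 15.9% and 7.88% of genes (limma). Ozone alone called no member in any strain, with 1, 2 and 3 at an unadjusted p under 0.05 in C57BL/6, SP-D-/- and BALB/c, as for 1.24%, 16.7% and 1.04% of genes (limma).

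In C57BL/6 the actin difference was 2.87 ± 0.288 at Af 96 h (n = 5) against 1.72 ± 0.193 with ozone (n = 6; two-sided exact permutation p = 0.00433, adjusted p = 0.0238), beside the spike shift given above, which did not pass after adjustment. With the doubted arrays left out and the spike level as a covariate 4 members stayed called (Tnc, Dcn, Lox and Loxl1). With the actin difference as well 3 were called (Tnc, Dcn and Eln), so only Tnc and Dcn passed in both of these fits. The other 6 missed the threshold there, among them Loxl1 at -0.89 (limma, adjusted p = 0.0662) and Ndnf at -1.43 (adjusted p = 0.0571).

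**Figure D4:**
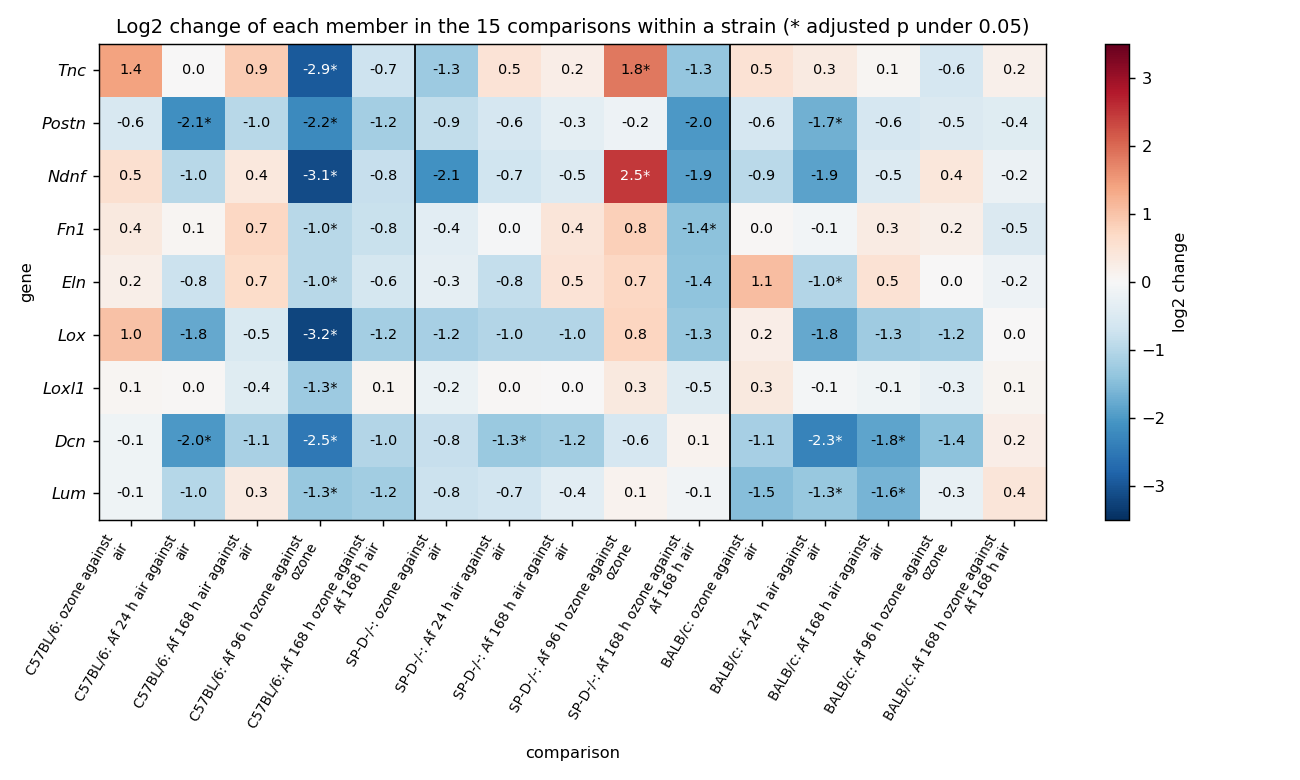
Log2 change of each of the 9 members (rows) in each comparison of an exposure within a strain (columns), with calls at an adjusted p under 0.05 marked. The C57BL/6 Af 96 h column is negative for all 9 members, and the Dcn row is called in 5 columns and the Postn row in 3, all of them lower.

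In air no member was called between SP-D-/- and C57BL/6 (0.0664% of genes called) or between BALB/c and C57BL/6 (0.511%), and none was at an unadjusted p under 0.05 in either. Under Af 96 h with ozone 6 of 9 members were higher in SP-D-/- than in C57BL/6, where 16.2% of genes were called. Tnc was 2.50 higher (5.66-fold, limma, adjusted p = 0.00131), Ndnf 3.43 higher (adjusted p = 0.000817, approximate in size, since the C57BL/6 arrays were under the filter level), and Eln 1.47, Fn1 1.27, Postn 1.44 and Loxl1 1.12 higher. The Postn call was lost without C57BL/6 replicates 3 or 4 or SP-D-/- replicates 2, 3, 5 or 6 (adjusted p up to 0.174, with 0.99 without C57BL/6 replicate 3). With the doubted arrays left out and the spike level as a covariate, Fn1, Postn and Loxl1 were not called (adjusted p = 0.0572, 0.342 and 0.0883).

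The same 6 members were higher in BALB/c than in C57BL/6 at Af 96 h, where 6.26% of genes were called. Tnc was 1.73 higher (limma, adjusted p = 0.0257), Ndnf 2.62 (approximate, as above), Fn1 1.49, Eln 1.57, Postn 1.82 and Loxl1 1.27 higher. Strain differences of Eln, Tnc and Loxl1, here and for SP-D-/-, are those of the brightest probe set. The other probe set followed it over arrays at r = 0.04 for Eln, 0.10 for Tnc and 0.62 for Loxl1. The comparisons of SP-D-/- and of BALB/c with C57BL/6 at Af 96 h both use the same 5 C57BL/6 arrays. Calls of Ndnf, Fn1, Eln and Loxl1 held without any one array. Tnc lost its call without C57BL/6 replicates 2 or 4 or BALB/c replicates 3, 4 or 6 (adjusted p up to 0.1), and Postn without C57BL/6 replicate 3 or BALB/c replicate 4 (adjusted p = 0.107 and 0.054). After ozone alone BALB/c against C57BL/6 called no member (0.146% of genes called). Against C57BL/6 neither strain had a member called at Af 24 h or at Af 168 h. For SP-D-/- those comparisons called 0.0863% of genes at Af 24 h, 0.0199% at Af 168 h with air and 0.504% at Af 168 h with ozone. For BALB/c they called 0.385%, 0.597% and 0.139% in the same order.

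The test of the difference between responses called all 9 members at Af 96 h for SP-D-/- minus C57BL/6. All 9 differences were above 0, with a median of 1.93 beside 0.20 over all genes, and 16.8% of genes were called higher and 10.6% lower. They are taken from ozone groups in which every member had a lower mean in SP-D-/- than in C57BL/6, Lox for example 6.94 against 9.14. Within SP-D-/- the means of Dcn and Postn went down from ozone alone to Af 96 h, from 7.70 to 7.11 and from 8.66 to 8.49. Between the strains at Af 96 h itself Dcn, Lox and Lum were not called. The differences were 5.60 ± 0.94 for Ndnf (limma, adjusted p = 0.000297, approximate in size), 3.96 for Lox, 2.05 for Postn, 1.93 for Dcn, 1.80 for Fn1, 1.68 for Eln, 1.62 for Loxl1 and 1.44 for Lum. With the spike level as a covariate and the doubted arrays left out, only Tnc and Ndnf stayed called, and with the actin difference as well none did (0 of 9, both at an adjusted p of 0.0549). Lum was lost without any of 11 of the 21 arrays, Postn without 4 and Dcn without SP-D-/- ozone replicate 5 (adjusted p = 0.0618). The Lum arrays were C57BL/6 ozone replicates 1, 2, 3 and 4, C57BL/6 Af 96 h replicates 1 and 4, SP-D-/- ozone replicates 2, 4 and 5 and SP-D-/- Af 96 h replicates 2 and 3 (adjusted p from 0.054 to 0.0826). Those for Postn were C57BL/6 Af 96 h replicate 3, SP-D-/- ozone replicates 2 and 5 and SP-D-/- Af 96 h replicate 5 (adjusted p from 0.0512 to 0.0897). For BALB/c minus C57BL/6 the same difference called no member and no gene (limma, 0 of 15065), with 5 members and 1042 genes at an unadjusted p under 0.05. Among the other differences between responses, SP-D-/- minus C57BL/6 called 0.00664% of genes for Af 168 h with air and 0.0398% for ozone among the Af 168 h groups, BALB/c minus C57BL/6 called 0.0133% for Af 24 h, and no member was among them.

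Across the arrays of a group, members differed in how closely they followed the spike level. After removing group means, Ndnf correlated with it over 89 arrays at r = -0.74 (rho = -0.77) and Tnc at r = -0.70 (rho = -0.69), each with a permutation p of 1e-05, the smallest that 100000 permutations can give, and 3.6e-05 for r adjusted over 18 relations. Without the 2 arrays farthest from the median r was -0.76 and -0.71. Lox (-0.60), Fn1 (-0.57), Postn (-0.56), Eln (-0.36), Lum (-0.35) and Loxl1 (-0.26) followed, all 8 with an adjusted p under 0.05. Decorin did not pass, with r = -0.11 and rho = -0.12 (permutation p = 0.364 and 0.328, adjusted p = 0.409 and 0.328, r = -0.13 without 2 arrays). With the actin difference 3 of 9 members correlated, Lox (r = -0.48, rho = -0.46), Postn (r = -0.40, rho = -0.40) and Dcn (r = -0.36, rho = -0.27, adjusted permutation p = 0.00931 and 0.0473, r = -0.29 without 2 arrays). The spike level and actin difference were measured on the same arrays, and their part in the member changes was tested only through the covariate fits above.

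**Figure D5:**
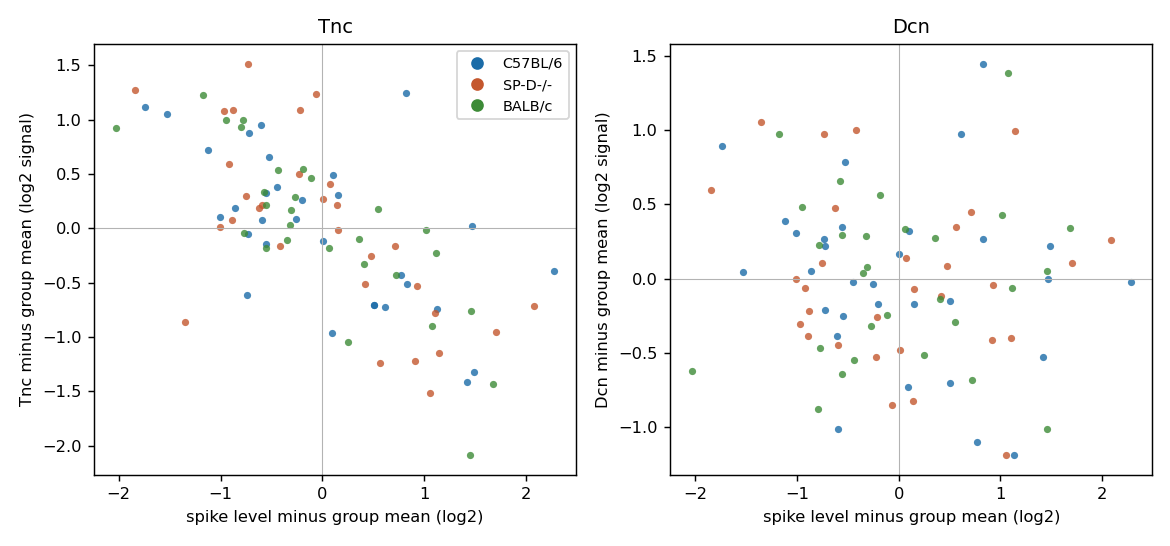
Deviation of the log2 signal of Tnc and Dcn from the group mean (y axis) against the deviation of the spike level (x axis), 1 point per array (89 arrays). Tnc slopes down with r = -0.70, and Dcn shows r = -0.11.

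Other matrix genes, in 5 lists by role, were tested in the same fits (58 of 65 listed genes, chosen with earlier results known). Several small proteoglycans fell at Af 24 h, as decorin did, and the genes of this list that rose encode 2 large proteoglycans and a hyaluronan synthase. Aspn, encoding asporin, a close relative of decorin, changed by -2.37 in C57BL/6 (limma, adjusted p = 0.00151), -1.61 in SP-D-/- (adjusted p = 0.0412) and -1.91 in BALB/c (adjusted p = 0.00937). Ogn, encoding osteoglycin, changed by -1.61 in C57BL/6 (adjusted p = 0.017) and -2.26 in BALB/c (adjusted p = 0.000676), and Bgn, encoding biglycan, by -1.002 in SP-D-/- and -0.93 in BALB/c (adjusted p = 0.0362 and 0.041). Hspg2, encoding the basement membrane proteoglycan perlecan, rose in all 3 strains, by 0.86, 0.85 and 1.34 (adjusted p = 0.0262, 0.039 and 0.000444 in C57BL/6, SP-D-/- and BALB/c). Vcan, encoding versican, a large proteoglycan that binds hyaluronan, rose by 0.96 in C57BL/6 and 1.24 in BALB/c (adjusted p = 0.0474 and 0.0111). Has1, a hyaluronan synthase, rose by 1.17 in C57BL/6 and 0.87 in SP-D-/- (adjusted p = 0.00173 and 0.024). Of 11 tested genes of proteoglycans and hyaluronan, 3 rose and 2 fell in C57BL/6, 2 rose and 2 fell in SP-D-/- and 2 rose and 4 fell in BALB/c. Over all genes 6.4% were called higher and 9.78% lower in C57BL/6, 1.6% and 3.11% in SP-D-/- and 3.92% and 8.13% in BALB/c, and the counts of the other lists stand beside these shares too.

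Among 10 matricellular genes 1 rose and 1 fell at Af 24 h in C57BL/6, and 1 rose and 3 fell in BALB/c. For SP-D-/- at Af 24 h the calls outside the proteoglycan list were 1 matricellular gene and 1 TGF-beta pathway gene, both lower. Sparc, encoding the collagen-binding osteonectin, fell in all 3 strains, by -0.93, -0.88 and -1.26 (limma, adjusted p = 0.0194, 0.0364 and 0.00139 in C57BL/6, SP-D-/- and BALB/c). Ccn1, an immediate early matricellular gene, rose by 1.25 in C57BL/6 and 1.41 in BALB/c (adjusted p = 0.0154 and 0.00577). Among 16 elastic fibre genes, Fbn2, encoding fibrillin 2, rose by 2.11 in C57BL/6 (adjusted p = 0.0204), and 5 fell in BALB/c, led by Ltbp4, which anchors TGF-beta to microfibrils, at -2.31 (adjusted p = 0.00501). Of 10 matrix receptors 3 fell in C57BL/6 and 1 in BALB/c. Itga8, an integrin subunit of fibroblasts and smooth muscle whose ligands include tenascin C, changed by -2.71 and -2.66 (adjusted p = 0.0121 and 0.0129). Of 11 TGF-beta pathway genes 1 rose and 2 fell in C57BL/6 and 4 fell in BALB/c, among them the receptor Tgfbr1 at -1.81 and -1.76 (adjusted p = 0.014 and 0.0167).

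In C57BL/6 at Af 96 h 3 of the 58 other genes rose and 29 fell, with a median change of -1.01 beside -0.00 over all genes. There 17.2% of all genes were called higher and 19.2% lower, and the marker counts at Af 96 h below stand beside these shares too. The actin difference was 2.87 ± 0.288 against 1.72 ± 0.193. Itga8 fell by 4.46 (limma, adjusted p = 3.75e-06), Prelp, a basement membrane anchor of the decorin family, by 3.38 (adjusted p = 1.52e-06), and Tnxb, encoding the related tenascin X, by 3.04 (adjusted p = 5.76e-06). Ltbp4 fell by 2.71 and the microfibril gene Mfap5 by 2.45 (adjusted p = 0.000176 and 0.000216). Hspg2 rose by 0.80 and Fbln1, encoding fibulin 1, by 1.47 (adjusted p = 0.0134 and 0.0216), and Loxl4, a relative of Lox, rose by 0.86 (adjusted p = 0.0454). In SP-D-/- at Af 96 h 1 of 58 rose, the cytokine gene Tgfb2 by 0.95 (adjusted p = 0.0266), and none fell. This is near the shares over all genes, 2.36% called higher and 0.226% lower. In SP-D-/- at Af 168 h with ozone 2 fell with fibronectin, where 0.385% of all genes were called lower. These were Efemp1, by 2.23, and Fbln5, encoding fibulin 5 of elastic fibres, by 1.90 (adjusted p = 0.00436 and 0.0204), beside the skeletal muscle rise given with Fn1.

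Markers of fibroblasts and of other cells were measured in the same comparisons. The mean log2 level of 8 fibroblast markers was 7.92 in C57BL/6 air (7.61 to 8.12 over arrays) and 7.08 at Af 24 h (6.51 to 7.58). It was 7.92 with ozone (7.82 to 8.09) and 6.59 at Af 96 h (6.07 to 7.11), and in BALB/c 8.19 in air (7.92 to 8.38) and 6.98 at Af 24 h (5.58 to 7.63). In SP-D-/- it was 7.93 in air (7.64 to 8.13) and 7.40 at Af 24 h (6.23 to 8.03). Of these 8 genes 2 fell and 0 rose in C57BL/6 at Af 24 h, none was called in SP-D-/- at Af 24 h (0 of 8, limma), 3 fell and 1 rose in BALB/c at Af 24 h, and 5 fell and 1 rose in C57BL/6 at Af 96 h. Gucy1a1, a guanylate cyclase subunit of pericytes and fibroblasts, changed by -4.25, -3.93 and -5.04 (limma, adjusted p = 0.000401, 0.000804 and 2.38e-06), whereas Col1a2, a fibrillar collagen chain, rose by 0.98 in BALB/c at Af 24 h and by 0.79 in C57BL/6 at Af 96 h (adjusted p = 0.0323 and 0.0355). Of 5 smooth muscle markers 4 fell in C57BL/6 at both times, 3 in SP-D-/- and 2 in BALB/c at Af 24 h. Of 6 endothelial markers 3 fell at Af 24 h in C57BL/6, 0 in SP-D-/- and 5 in BALB/c, and 6 at Af 96 h in C57BL/6. The mean level of 5 pulmonary vein cardiac muscle markers was 9.53 in C57BL/6 air (8.99 to 9.79) and 6.72 at Af 24 h (5.95 to 7.67), 9.12 in SP-D-/- air (8.91 to 9.34) and 6.53 at Af 24 h (4.78 to 8.85), and 8.98 in BALB/c air (8.62 to 9.38) and 7.08 at Af 24 h (5.02 to 10.2). In C57BL/6 it was 9.40 with ozone (7.68 to 10.1) and 6.32 at Af 96 h (4.34 to 9.88). Of these 5 genes 3, 2 and 1 fell at Af 24 h in C57BL/6, SP-D-/- and BALB/c, and 4 fell in C57BL/6 at Af 96 h. Tnnt2, encoding cardiac troponin T, changed by -4.06, -4.07 and -3.59 in C57BL/6 at Af 24 h, SP-D-/- at Af 24 h and C57BL/6 at Af 96 h (adjusted p = 0.015, 0.0185 and 0.0102). In BALB/c at Af 24 h 3 of 8 skeletal muscle markers fell, with a mean level of 5.60 (4.34 to 9.52). In BALB/c at Af 168 h with air all 8 skeletal muscle markers fell, where 0.75% of all genes were called lower. Their mean level went from 8.20 in air, with arrays from 4.81 to 11.1, to 4.43. Cartilage markers Acan, Chad and Hapln1 rose in C57BL/6 at Af 96 h (0.85, 1.54 and 2.44, limma, adjusted p under 0.05 each). At Af 24 h Chad changed by -1.64, -2.37 and -1.48 in C57BL/6, SP-D-/- and BALB/c, and Col9a1 rose by 1.47 in C57BL/6. The mesothelial markers Upk3b and Wt1 and the alveolar markers Ager and Cldn18 fell in C57BL/6 at Af 96 h. At Af 24 h mesothelial Msln rose in C57BL/6, and Upk3b and Cldn18 fell in BALB/c. The part of these markers in the member changes was not tested.

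By a rule of likeness over the 18 group means, the genes closest to Tnc were Abtb2 (r = 0.89), Serpinh1 (0.89), which encodes the collagen chaperone HSP47, Apex1 (0.89), Polr2d (0.88), Kti12 (0.88) and Psmc5 (0.88). Strbp (-0.86), Rgs9 (-0.85) and Tcstv1 (-0.85) ran most opposite. Within groups r with Tnc was 0.78 for Abtb2 and 0.66 for Serpinh1, over arrays that share the relation of Tnc with the spike level. Among the members, Postn and Lox ran most alike over group means (r = 0.86, and 0.73 within groups), followed by Tnc and Ndnf (0.81 and 0.67) and Dcn and Lum (0.80 and 0.38). Fn1 and Lox had the highest r within groups, 0.82. Tnc and Dcn were far apart in pattern, with 0.30 over group means and 0.18 within groups.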

How the data were processed

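The 89 arrays of mouse lung RNA form 18 groups of strain and exposure. Log2 values of 45141 probe sets were used as deposited by the authors. The software that normalized them is not given in the sources consulted here. Annotation named 1 gene for 28898 probe sets, several for 551 and none for 15692. A gene was tested if its brightest probe set exceeded the 40th percentile (log2 4.45) on 4 or more arrays, and 15065 genes passed.

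The model was limma 3.58.1 (R 4.3.3) with a mean per group over all 89 arrays and 37 two-sided contrasts, adjusted by Benjamini-Hochberg within each (calls at an adjusted p under 0.05). Array measures were compared by exact permutation and correlations by 100000 permutations. The fit was tested on simulated data. Members and lists were chosen with earlier results of these data known. Of the listed genes outside the members, those named had at most 3 of the largest called rises or falls per role and comparison. Replicate numbers paired arrays (every r above 0.1) only for C57BL/6 Af 168 h ozone against air (4 of 4, mean 0.337) and BALB/c against C57BL/6 at Af 168 h with air (4 of 4, mean 0.256). The labels give no reason for the numbers, and 0 members were called there with or without the block. Figures used matplotlib 3.10.9 in Python 3.11.15.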

Additional observations from a re-analysis of the deposited data

Results flagged for a closer look

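Of 153 sets of arrays (a member in a group of 4 to 10 arrays), 18 had an array set apart from the rest, where chance gives about 1 in 20. For Tnc this was C57BL/6 air replicate 6, at 5.49. For Ndnf the arrays were C57BL/6 ozone replicate 5, at 5.82 (6.69 to 7.11 on the rest), and SP-D-/- Af 24 h replicate 1, at 2.97 (5.68 to 7.06 on the rest). For Fn1 they were the array labelled BALB/c Af 24 h replicate 4, at 7.02 (9.27 to 9.53 on the rest), BALB/c Af 96 h replicate 1 at 8.04, and SP-D-/- air replicate 3 at 8.27. For Eln it was BALB/c Af 96 h replicate 1, at 9.63, and the same array was set apart for Lox, at 6.03. For Postn they were BALB/c Af 168 h air replicate 6 at 8.76, BALB/c Af 168 h ozone replicate 6 at 7.94, BALB/c Af 24 h replicate 4 at 6.60, C57BL/6 Af 96 h replicate 3 at 5.28 and SP-D-/- Af 168 h ozone replicate 6 at 4.23. For Lox they also included BALB/c Af 168 h ozone replicate 6 at 5.39 and C57BL/6 Af 168 h air replicate 4 at 6.19. For Loxl1 they were BALB/c Af 168 h air replicate 6 at 6.79, BALB/c air replicate 4 at 7.07 and C57BL/6 Af 24 h replicate 1 at 8.20. Of these arrays, BALB/c Af 24 h replicate 4 and BALB/c Af 168 h ozone replicate 6 are among the 5 doubted arrays.

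The response to Af 96 h with ozone, against ozone alone, differed between SP-D-/- and C57BL/6 for all 9 members tested (limma, adjusted p under 0.05 each). SP-D-/- minus C57BL/6 was 4.78 for Tnc, 5.60 for Ndnf, 1.93 for Dcn, 1.80 for Fn1, 1.68 for Eln, 2.05 for Postn, 3.96 for Lox, 1.62 for Loxl1 and 1.44 for Lum on the log2 scale. In the same test 4127 of the 15065 genes were called. The members called were 6 to 9 with 1 array left out, 2 of 9 with the doubted arrays left out and the spike level as a covariate, and 0 of 9 with the actin difference as well. The second Tnc probe set gave -0.57 (adjusted p = 0.436).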

How the results depend on the processing

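Counts of members called are given as the count over all arrays and then the count under the alternative, and no called value changed sign under any alternative. The array numbers limit precision, and Lum, Ndnf at Af 96 h in C57BL/6 and the second Tnc probe set were near background, as was Aspn of the other matrix genes. Without the filter every count stayed within 1.5 times. Cyclic loess took SP-D-/- Af 24 h from 1 to 0, and the mean of all probe sets took SP-D-/- Af 96 h from 2 to 0. A fit of only the groups compared gave C57BL/6 ozone 1 (from 0), C57BL/6 Af 24 h 5 (from 2), SP-D-/- Af 24 h 3 (from 1), SP-D-/- Af 96 h 1 (from 2), SP-D-/- Af 168 h with ozone 0 (from 1), BALB/c Af 24 h 2 (from 4), SP-D-/- against C57BL/6 with ozone 3 (from 1) and BALB/c against C57BL/6 in air 1 (from 0). With the replicate number as a block SP-D-/- Af 168 h with ozone had 2 (from 1) and BALB/c Af 24 h 3 (from 4), and the pairing changed no other count by over 1.5 times. Without the doubted arrays SP-D-/- Af 96 h had 1, SP-D-/- Af 168 h with ozone 3 and BALB/c Af 24 h 2.

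With the spike level as a covariate as well, C57BL/6 Af 96 h had 4 (from 9), SP-D-/- Af 96 h 1, SP-D-/- Af 168 h with ozone 2, BALB/c Af 24 h 2, SP-D-/- against C57BL/6 0 with ozone and 3 (from 6) at Af 96 h, and the difference of the Af 96 h responses 2 (from 9). A fit with the actin difference too was added after seeing the data. It gave C57BL/6 Af 24 h 0 and Af 96 h 3, SP-D-/- Af 24 h 0, Af 96 h 1 and Af 168 h with ozone 3, BALB/c Af 24 h 1 and Af 168 h 1 (from 2), SP-D-/- against C57BL/6 0 with ozone and 3 at Af 96 h, and the difference 0. Leaving out 1 array gave 2 to 3 in C57BL/6 Af 24 h, 8 to 9 in C57BL/6 Af 96 h, 0 to 1 in SP-D-/- Af 24 h, 0 to 2 in SP-D-/- Af 96 h, 0 to 5 in SP-D-/- Af 168 h with ozone, 2 to 5 in BALB/c Af 24 h, 1 to 2 in BALB/c Af 168 h, 0 to 3 for SP-D-/- against C57BL/6 with ozone, 5 to 7 at Af 96 h, 4 to 7 for BALB/c against C57BL/6 at Af 96 h and 6 to 9 for the difference. The causes of these changes were not tested. Of 4221 member values with 1 array left out, 4129 kept their side of the threshold, 74 lost it and 18 gained it.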
